A study of Mus musculus with 4 samples.

Results

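Olfactory receptor genes form one of the largest gene families of the mouse genome, and 163 of its 1110 protein-coding members had accessible chromatin called nearby in B16F10 melanoma cells. These 163 genes were chosen by the measured peaks themselves, as those with a symbol starting with Olfr that were the nearest protein-coding gene end, within 50 kb, of at least 1 ATAC-seq peak in any library. ATAC-seq maps open chromatin through the sites where the Tn5 transposase inserts sequencing adapters. The data came from 4 libraries of B16F10, a mouse melanoma line grown in vitro: 2 with a control guide RNA of scrambled sequence (sgScramble) and 2 with a guide against Arid1a (sgArid1a), a DNA-binding subunit gene of the BAF chromatin remodelling complex. No other treatment or genotype is given for either group, and whether the guides were introduced into pools or single clones is not given in the sources used here. Peak lists cannot show whether Arid1a was lost, and expression was not analysed here. Peaks of the 4 libraries that overlapped were merged into 103629 regions, and 228 of them (0.220%) lay nearest to a receptor gene, although receptors are 5.07% of the 21887 protein-coding genes. Since peaks chose the members, the presence of a peak near them is a description and not a result.

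Each olfactory sensory neuron of the nose transcribes a single allele of a single receptor gene, while all other receptor genes stay packed in heterochromatin. The receptors are G protein-coupled, usually encoded by an intronless coding exon, and lie in clusters on most chromosomes. In the nose, enhancers within these clusters, bound by the homeodomain factor LHX2, EBF factors and the adaptor LDB1, gather around the chosen gene. Outside the nose most receptor genes are silent. Some clusters also hold other protein-coding genes, and transcription around the open sites was not analysed here.

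Peaks were rarely at the receptor genes themselves. A RefSeq promoter window, from 250 bases before to 50 after an annotated start, was listed for 944 of the 1110 receptor genes (948 windows), and 7 of those windows were touched by a peak. For 4 of the 7, the peak came from a single library. The other three are shown because they are the receptor promoters that peaks of more than 1 library reached. Capitals mark the bases inside the merged region, the build is GRCm38.p6 (the build of mm10), and each sequence runs 5′ to 3′ along the strand of its gene.
Olfr95 (chr17:37211802-37212101, minus strand): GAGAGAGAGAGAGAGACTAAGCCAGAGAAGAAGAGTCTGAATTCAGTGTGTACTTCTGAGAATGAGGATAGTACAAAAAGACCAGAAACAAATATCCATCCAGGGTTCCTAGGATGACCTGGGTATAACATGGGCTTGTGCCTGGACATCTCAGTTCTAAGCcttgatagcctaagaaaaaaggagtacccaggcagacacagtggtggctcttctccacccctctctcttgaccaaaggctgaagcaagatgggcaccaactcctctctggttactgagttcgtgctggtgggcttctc
Olfr38 (chr6:42761804-42762103, plus strand): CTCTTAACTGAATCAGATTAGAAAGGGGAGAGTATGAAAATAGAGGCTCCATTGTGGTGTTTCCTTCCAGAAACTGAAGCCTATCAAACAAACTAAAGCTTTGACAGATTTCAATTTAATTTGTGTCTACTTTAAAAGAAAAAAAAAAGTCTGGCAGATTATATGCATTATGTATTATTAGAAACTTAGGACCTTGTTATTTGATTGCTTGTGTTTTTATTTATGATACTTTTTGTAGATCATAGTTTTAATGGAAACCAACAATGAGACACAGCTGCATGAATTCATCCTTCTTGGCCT
Olfr1532-ps1 (chr7:106907875-106908174, plus strand): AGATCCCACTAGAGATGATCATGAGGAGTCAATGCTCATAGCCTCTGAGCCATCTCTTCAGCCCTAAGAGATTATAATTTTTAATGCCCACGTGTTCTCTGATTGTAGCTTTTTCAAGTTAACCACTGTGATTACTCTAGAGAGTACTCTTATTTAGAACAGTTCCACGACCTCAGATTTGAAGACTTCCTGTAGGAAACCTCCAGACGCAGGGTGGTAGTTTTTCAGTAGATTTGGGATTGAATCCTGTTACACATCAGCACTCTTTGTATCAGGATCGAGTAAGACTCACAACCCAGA

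The Olfr95 window was reached by a merged region with a peak in all 4 libraries. The merged region (chr17:37211940-37212852) covered 162 of its 300 bases at the upstream side and stopped short of the annotated start. The peak was 566 and 705 bp long in sgScramble replicates 1 and 2, and 714 and 834 bp in sgArid1a replicates 1 and 2. The fold deposited for a peak is read here as a ratio of signal over background. For this peak it was 4.73 and 4.30 in sgScramble and 3.81 and 3.72 in sgArid1a cells. Ranked within its own list, the fold stood at percentiles 68.2 and 59.5 in sgScramble and 48.1 and 49.3 in sgArid1a libraries. The sgArid1a peaks were longer and stood at lower percentiles, without overlap between the groups in either value. The sgArid1a lists were shorter, and the same rank from the top gives a lower percentile in a shorter list. A lower percentile therefore need not mean a lower rank. The Olfr38 window lay wholly inside a merged region made of peaks of 839 and 259 bp in sgScramble replicates 1 and 2 and 1134 bp in sgArid1a replicate 2, with none in sgArid1a replicate 1. The Olfr1532-ps1 window lay wholly inside a region called in sgScramble replicate 1 (300 bp) and sgArid1a replicate 2 (471 bp). RefSeq lists this gene as protein-coding although its symbol carries the pseudogene suffix, as it does for 2 other receptor genes. Of the receptor genes, 905 (81.5%) are annotated as shorter than 1100 bp, little more than the coding exon, so a promoter window can sit at the coding start and miss a more distant first exon.

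Receptor promoters were poor in G and C. The median G and C content was 35.0% over the 948 receptor windows and 56.3% over 21263 windows of protein-coding genes, and the median number of CG dinucleotides was 1 against 13. Members were less poor in G and C than receptors without a peak (40.7% against 34.3%). The homeodomain core TAATTA was found in 18.6% of receptor windows and 14.0% of the 143 windows of members, against 4.53% of all windows, and TATAAA in 41.0% and 32.2%, against 12.6%. TAATTA and TATAAA hold only A and T, and no share was adjusted for the base content of the windows. The O/E core, the palindrome bound by EBF factors, was found in 0.527% of receptor windows, 0.699% of members' windows and 0.959% of all. Both strands were searched, and matches that overlap another motif were kept. The M-box TCATGTG, bound by MITF, was in 2.80% of members' windows, 6.12% of receptor windows and 2.99% of all. The E-box CACGTG, which MITF and its relatives also bind, was in 3.5% of members' windows, 2.11% of receptor windows and 7.84% of all. One of the 3 windows shown, that of Olfr1532-ps1, holds this E-box, starting at base 89. None of the 3 holds the homeodomain core, the TATA letters, the M-box or the O/E core, which says only that these letters are not in these windows.

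The ends of receptor genes were rarely open in any library. A peak lay within 1 kb of either end of 24 receptor genes in sgScramble replicate 1 (2.16%, 95% Clopper-Pearson interval 1.39% to 3.20%), 16 in sgScramble replicate 2 (1.44%), 14 in sgArid1a replicate 1 (1.26%) and 20 in sgArid1a replicate 2 (1.80%). Among the 20777 other protein-coding genes the share was 62.2% to 64.4%. The groups overlapped in the receptor share, and 6 receptors had such a peak in every library: Olfr1373, Olfr1382, Olfr159, Olfr225, Olfr70 and Olfr95. The olfactory genes outside the receptor family were mixed. Omp, the marker protein gene of mature olfactory neurons, had an end peak in 1 library, Cnga2, a subunit gene of the olfactory ion channel, and Rtp1 and Rtp2, receptor transport protein genes, had none in any library, and Adcy3, the adenylate cyclase gene, had one in all 4. The 7 melanoma markers (Mitf, Sox10, Pmel, Mlana, Tyr, Tyrp1 and Dct) all had end peaks in every library, so the markers of the labelled cell type were open, while 1 of 9 olfactory neuron markers did and 5 had none.

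Regions at receptor gene ends were called in few libraries. Of the 228 regions, 39 (17.1%) lay within 1 kb of a receptor gene end. The share that close to a gene end was 14.9% of all regions. It was 19.8% of the regions within 50 kb of a protein-coding gene, the limit that also holds for receptor regions. Of the 39, 8 (20.5%, interval 9.30% to 36.5%) were in all 4 lists and 19 (48.7%) in a single list. Over all 15482 gene-end regions those shares were 81.8% and 8.08%. Of the 189 receptor regions farther out, 94 (49.7%) were in all lists and 47 (24.9%) in 1, close to the 45.6% and 24.8% of all regions over 1 kb from a gene end. Counted only up to 50 kb, the latter shares were 46.8% and 24.4%.

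**Figure D1:**
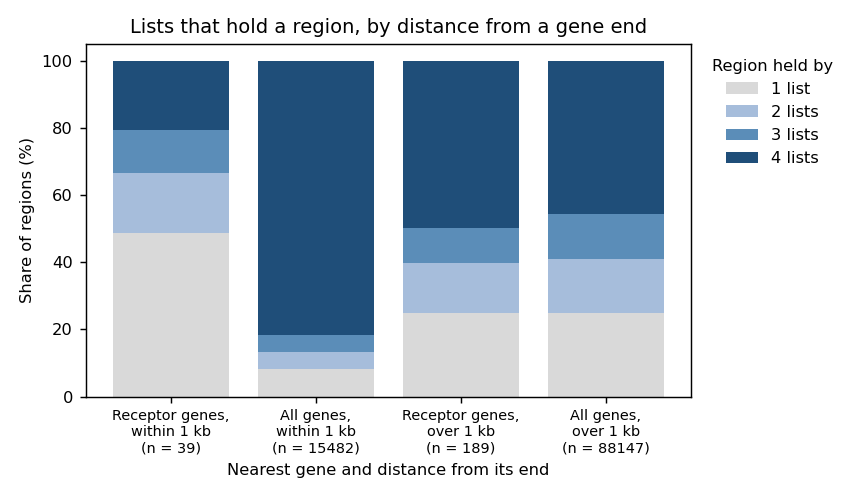
Share of merged regions (%) held by 1, 2, 3 or 4 peak lists, for regions within 1 kb of a gene end or farther away, nearest to receptor genes or to any protein-coding gene. Within 1 kb, 20.5% of receptor regions and 81.8% of all regions are in 4 lists, against 49.7% and 45.6% beyond 1 kb.

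The 8 gene-end regions in all lists differed widely in strength. Strength is given as a percentile of the fold within a list, averaged over the lists that hold the region, because the fold is not comparable between lists of unknown depth. Percentiles are not free of list length either, and the shorter sgArid1a lists give the same rank a lower one. The strongest lay 1000 bp from an end of Olfr983 (chromosome 9, 40094558 to 40095354; percentile 96.5), on the upstream side. Its fold was 7.30 and 7.53 in sgScramble and 6.49 and 6.35 in sgArid1a replicates 1 and 2. The percentiles within each list were 98.6 and 99.1 in sgScramble and 93.7 and 94.7 in sgArid1a libraries, lower in both sgArid1a lists, and the peaks were 673 to 797 bp long. The region 463 bp from Olfr1373 stood at percentile 81.5 and that over an end of Olfr225 at 81.4. Those at Olfr159 (74.0), Olfr70 (56.8), Olfr95 (56.2) and Olfr1382 (38.3) followed, and the region 75 bp from Olfr222 was the weakest at 20.4. The Olfr159 region, upstream of the start, had peaks of 574 and 536 bp in sgScramble and 287 and 306 bp in sgArid1a cells, so it was narrower in both sgArid1a libraries.

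Regions spread on both sides of the genes. Where RefSeq gave a start (205 of the 228 regions), the centre lay upstream in 102 and downstream in 103. Within 5 kb there were 34 upstream and 37 downstream, and 11 centres lay in the 1 kb before a start. The median distance from the nearest receptor gene end was 6073 bp, against 9184 bp from the nearest gene end for all regions within the same 50 kb of a protein-coding gene. Such distances also depend on how closely genes are spaced, which was not adjusted for. Most regions (177, 77.6%) lay over no annotated gene, 29 touched a receptor gene, 10 a pseudogene and 15 a non-coding RNA gene. Of the 25 regions within 1 kb of an end of a gene that is no receptor, of any kind, 17 were in all lists. Of the 19 held by both sgScramble libraries, 0 lacked a peak in both sgArid1a libraries (interval 0% to 17.6%).

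**Figure D2:**
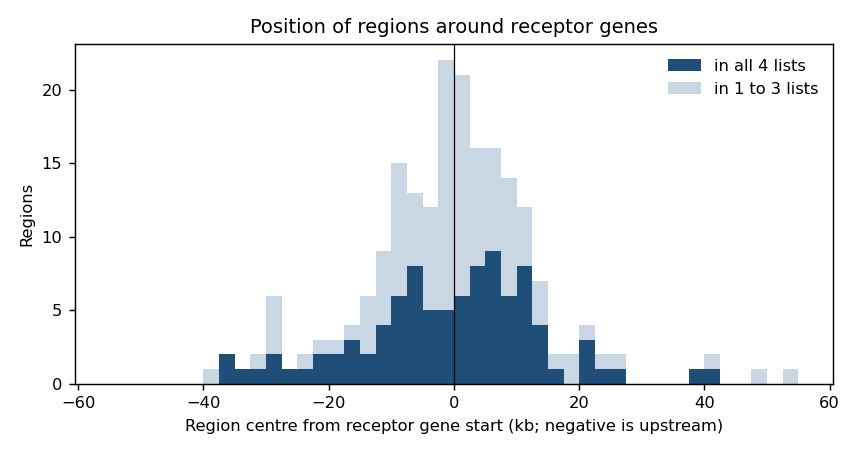
Number of regions (vertical axis) by distance of the region's centre from the annotated start of its receptor gene, in kb along the gene's strand, in bins of 2.5 kb. Dark bars are regions in all 4 lists and light bars regions in 1 to 3 lists; the 2 bins beside the start hold 22 and 21 regions and the counts fall off on both sides.

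Among the 102 receptor regions held by all 4 lists, the 2 strongest lay over non-coding RNA genes on chromosome 15. The first lay inside the long non-coding RNA gene 1700031M16Rik, 28260 bp from Olfr282 (chromosome 15, 98408298 to 98409210). Its fold was 6.99 and 7.29 in sgScramble and 7.75 and 7.19 in sgArid1a replicates 1 and 2, at percentiles 97.6 and 98.6 against 99.0 and 98.6, so the groups met. The next of these 102, 4137 bp from Olfr288 in the same cluster (98180888 to 98181874), lay over the non-coding RNA gene Gm33909. Its fold was 6.89 and 7.49 in sgScramble and 6.76 and 6.70 in sgArid1a cells, at percentiles 97.2 and 99.0 against 95.6 and 96.9. The percentiles were lower in both sgArid1a lists, which were also the shorter lists, so this does not show a lower rank. After the Olfr983 region came regions within the annotated span of Olfr710 (chromosome 7, 106945183 to 106946188; percentile 94.1) and over the receptor pseudogene Olfr1069-ps1 near Olfr1066 (chromosome 2, 86464287 to 86465140; 93.8). The Olfr1066 region had fold values of 7.01 and 6.17 in sgScramble and 5.75 and 7.41 in sgArid1a cells, at percentiles 97.7 and 92 against 86.3 and 99.0, which overlapped. The nearest protein-coding gene end outside the receptor family was 945352 bp away. It stood deep inside the largest receptor cluster.

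Transfer RNA genes lay under the widest of the regions with an annotated RNA gene. The region nearest Olfr1368 (chromosome 13, 21158626 to 21161754) covered n-TEctc11 and n-TFgaa4, and its peaks were 3092 and 3008 bp long in sgScramble and 2906 and 3091 bp in sgArid1a replicates 1 and 2. The region nearest Olfr750 (chromosome 14, 51063071 to 51066078) covered 3 transfer RNA genes, n-TLaag8, n-TPagg4 and n-TTtgt3, with peaks of 2478, 2848, 2513 and 3008 bp in the same order. Lengths overlapped between the groups at both sites. These 2 regions were named after their values were seen.

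Small clusters had more regions per receptor gene than large ones. Receptor genes no more than 500 kb from the next fell into 55 clusters, 11 of them single genes, and 48 clusters held a member. In the 33 clusters of 1 to 10 genes, 50 of 118 receptors (42.4%) were members, with 0.839 regions per receptor gene. In the 17 clusters of 11 to 50 genes 59 of 428 (13.8%) were members, and in the 5 larger ones 54 of 564 (9.57%), with 0.159 and 0.108 regions per gene. A receptor with few others beside it can be nearest to sequence up to 50 kb on either side, which these rates do not adjust for. Cluster spans, without that flanking sequence, summed to 4.28, 13.0 and 13.8 Mb from the smallest to the largest size. The median cluster of a member held 25 receptors and that of a receptor without a peak 58. A member lay a median of 48193 bp from another kind of protein-coding gene, and a receptor without a peak 168986 bp. Regions with receptor gene ends as both protein-coding neighbours numbered 146, or 5.66 per Mb of such sequence. Cluster spans as a whole held 11.6 regions per Mb, and the rest of chromosomes 1 to 19, X and Y held 38.4 per Mb. Of the 146 regions, 53 (36.3%) were in all lists and 55 (37.7%) in 1, while of the 82 with another protein-coding gene on one side 49 (59.8%) were in all lists and 11 (13.4%) in 1.

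**Figure D3:**
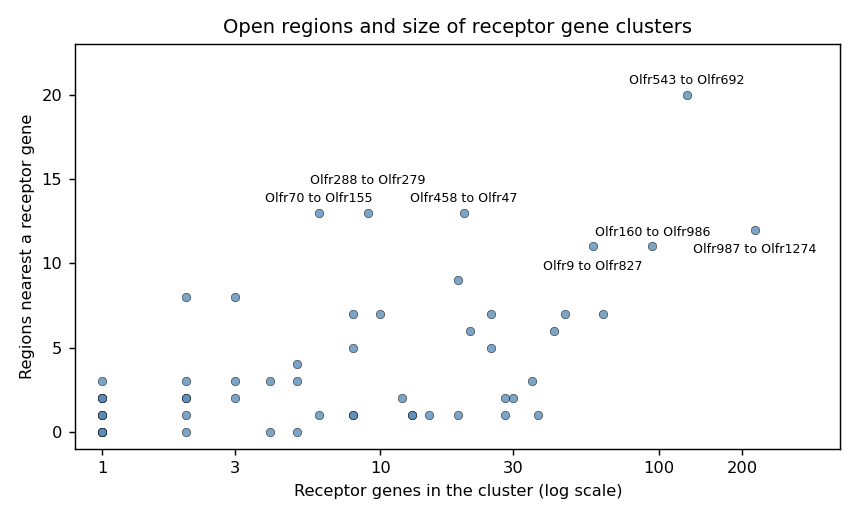
Regions nearest a receptor gene (vertical axis) by the number of receptor genes in the cluster (horizontal log axis), 1 point per cluster. The 7 clusters with 11 or more regions are labelled by their first and last gene; the cluster of 6 genes from Olfr70 to Olfr155 holds 13 regions and that of 222 genes from Olfr987 to Olfr1274 holds 12.

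The 5 clusters with most regions had between 12 and 20. The first, Olfr543 to Olfr692 on chromosome 7 (102476773 to 105369317), where the fish-like class I receptors lie around the beta-globin genes, held 126 receptors, 27 other protein-coding genes and 20 regions. Its regions contained 13 and 11 peaks in sgScramble and 13 and 14 in sgArid1a replicates 1 and 2. Of the 10 regions held by both sgScramble libraries, 0 lacked a peak in both sgArid1a libraries. Allowing 3 counts where 0 were seen leaves room for about 30% (3 of 10). The clusters Olfr458 to Olfr47 on chromosome 6, Olfr288 to Olfr279 on chromosome 15 and Olfr70 to Olfr155 on chromosome 4 held 13 regions each, for 20, 9 and 6 receptors. All 6 receptors of the chromosome 4 cluster were members, and its peak numbers of 11, 10, 11 and 10 did not separate the groups. Cluster Olfr987 to Olfr1274 on chromosome 2 held 12 regions over 5.07 Mb, with 8 and 9 peaks in sgScramble and 6 and 6 in sgArid1a cells. Its sgArid1a libraries were both lower. The 7 clusters without a region had at most 5 receptors each, among them both X chromosome clusters.

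Fewer peaks lay near receptor genes in the sgArid1a than in the sgScramble libraries, in step with shorter peak lists. The libraries held 82319 and 85613 peaks in sgScramble and 65353 and 71255 in sgArid1a replicates 1 and 2. Receptor genes took 173 and 165 of them in sgScramble and 136 and 144 in sgArid1a, and the groups did not overlap. The means were 169 ± 5.66 and 140 ± 5.66 (SD, n = 2 each). The sgArid1a mean was thus lower, with a difference of -29 peaks, -17.2% (exact permutation test, two-sided, p = 0.333, the smallest that 2 libraries against 2 can give). All peaks differed by -18.7%. Per 1000 peaks of the library, receptors took 2.10 and 1.93 in sgScramble and 2.08 and 2.02 in sgArid1a cells, so the groups overlapped and the order seen in the counts was gone (exact permutation p = 1). The replicates are not stated to be separate cultures, so p-values measure only the spread between these libraries. Depth is unknown, as peak lists carry no read counts. With each list reduced to the 65353 peaks of highest −log10 p the means were 126 in sgScramble and 132 in sgArid1a libraries.

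**Figure D4:**
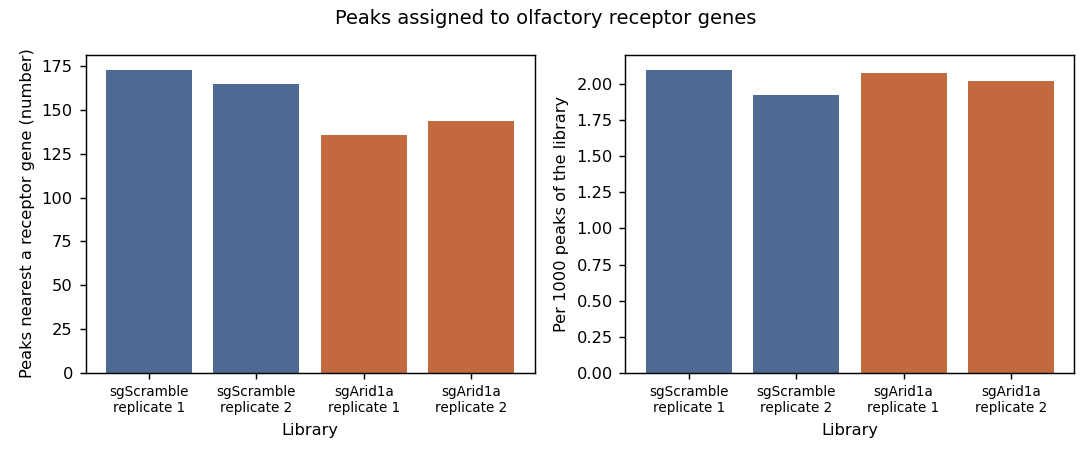
Number of peaks nearest a receptor gene (left) and the same per 1000 peaks of the library (right), with 1 bar for each of the 4 libraries. The counts are 165 and 173 in sgScramble and 136 and 144 in sgArid1a libraries, and per 1000 peaks all 4 lie between 1.93 and 2.10.

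Receptor peaks were narrower at the median than all peaks of the same list, and width was not compared at equal fold. Their median width was 550 and 577 bp in sgScramble and 526.5 and 534 bp in sgArid1a replicates 1 and 2, below the median of all peaks of the same list (754, 743, 675 and 732 bp). Their median −log10 q, as deposited, was also below that of all peaks, at 5.53, 6.14, 4.02 and 4.74 against 7.31, 7.14, 5.05 and 5.67. The median fold nevertheless stood at or above the middle of each list, at percentiles 53.4, 59.4, 50.7 and 54.1. Receptor peaks covered 114907 and 109379 bp in sgScramble and 84022 and 96877 bp in sgArid1a libraries, a difference of -19.3% between group means (exact permutation p = 0.333), with a mean peak width of 664, 663, 618 and 673 bp. Their share of all covered sequence was 0.144% to 0.156% and overlapped between the groups.

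Regions near receptors went missing in sgArid1a cells at about the rate of regions elsewhere. A region is called lost if each sgScramble library, but no sgArid1a library, had a peak there, and 18 of 143 receptor regions were lost (12.6%, interval 7.63% to 19.2%), against 12.9% over all regions. Of those over 1 kb from a gene end, 15 of 127 were lost (11.8%, interval 6.76% to 18.7%), against 15.1%. Counted only within 50 kb of a protein-coding gene, as receptor regions are, these 2 shares of all regions were 11.3% and 13.9%. Within 1 to 10 kb of a receptor the count was 13 of 81 (16%), against 13.4% of all regions at that distance from a gene end, and from 10 to 50 kb it was 2 of 46 (4.35%, interval 0.531% to 14.8%), against 14.3%. A region is called gained in the opposite case, and 2 of 106 were gained (1.89%, interval 0.229% to 6.65%), against 1.39% over all regions. Beyond 1 kb it was 1 of 97 (1.03%), against 1.67%. Intervals cover counting error over regions only, and regions are not replicates, so these shares describe 4 libraries.

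Among lost regions 3 were strong. The region between Olfr957 and Olfr958 on chromosome 9 (39518559 to 39519173), 6841 bp upstream of Olfr957, had peaks of 576 and 585 bp with fold 6.79 and 7 and −log10 q 15.3 and 15.6 in sgScramble replicates 1 and 2, and no peak in either sgArid1a list. A second region 1202 bp from the same gene, at percentile 35.5, was in all 4 lists. Olfr957 was thus covered over 891 and 857 bp in sgScramble and 440 and 596 bp in sgArid1a cells, without overlap between the groups. The region 24694 bp upstream of Olfr31 on chromosome 14 (14302815 to 14303419) had fold 6.27 and 6.13 in the sgScramble libraries and no sgArid1a peak, while a neighbouring region at 14294295 to 14295385 (percentile 81.6) was in all lists. The region 1054 bp from an end of Olfr2 on chromosome 7 (106999419 to 106999821) had fold 6.03 and 5.56 and −log10 q 10.2 and 9.10 in sgScramble cells only. Olfr2 encodes the I7 receptor, a classic model of odorant binding, and this was its only region.

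By mean fold percentile in the sgScramble lists, these 3 stood at 97.2, 92.3 and 87.3, and ranked 5, 17 and 45 among all 9388 lost regions. Above the 75th percentile 3 of 54 receptor regions were lost (5.56%, interval 1.16% to 15.4%), against 1.23% of all regions that strong. At percentiles 50 to 75 it was 1 of 36 (2.78%) against 6.85%, at 25 to 50 it was 7 of 40 (17.5%) against 18.8%, and up to 25 it was 7 of 13 (53.8%) against 31.9%. The median lost receptor region stood at percentile 30.3 and the median lost region overall at 27.8. The fourth by strength was near Olfr266 (percentile 56.5), in the non-coding RNA gene Gm35507, and the fifth 776 bp from Olfr215 (49.3). The other lost regions, near 12 further receptors (2 of them at Olfr221), ranged from percentile 10 to 47.3. One of these lay over an end of Olfr90 and one 865 bp from Olfr12.

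**Figure D5:**
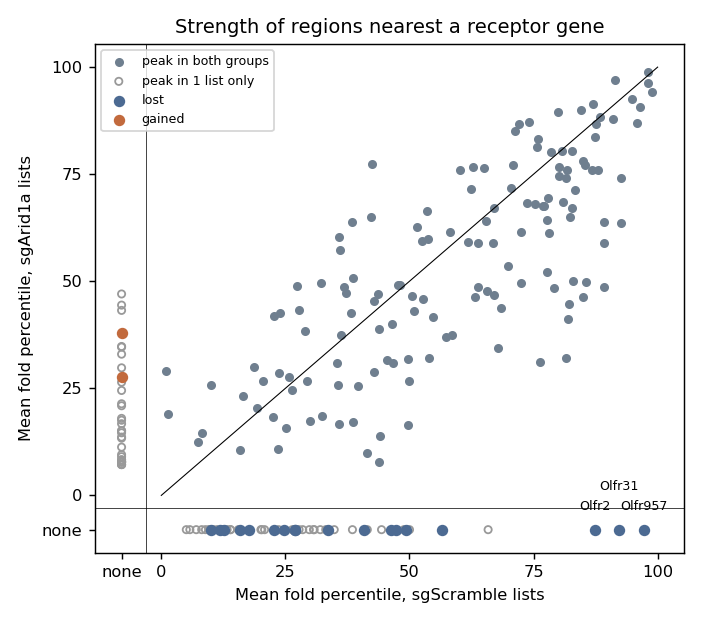
Each point is a region nearest a receptor gene, placed by mean fold percentile in the lists of sgScramble (horizontal) and of sgArid1a (vertical); points in the strips marked none had no peak in that group. Grey filled points had a peak in both groups, open points in 1 list only, blue points are lost and orange points gained, and the lost regions near Olfr957, Olfr31 and Olfr2 stand at 97.2, 92.3 and 87.3.

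The 2 gained regions were of middling to low strength. The region 26 bp from an end of Olfr458 on chromosome 6 (42461043 to 42462551) had peaks summing to 662 and 1111 bp with fold 3.72 and 3.13 in sgArid1a replicates 1 and 2, at percentile 37.8. The region 8534 bp from Olfr283 on chromosome 15 (98387731 to 98388092) had peaks of 325 and 347 bp with fold 3.40 and 2.87, at percentile 27.7. Olfr283 also had a region in all 4 lists, and was covered over 852 and 647 bp in sgScramble and 1110 and 1210 bp in sgArid1a cells.

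A single library held 66 of the 228 regions (28.9%, against 22.3% of all regions). They came from every library: 20 and 14 from sgScramble and 17 and 15 from sgArid1a replicates 1 and 2. Their median width was 361 bp and their median strength percentile 16.1, against 878.5 bp and 67.4 for the 102 regions in all lists, and the strongest of them, near Olfr284, stood at 65.8. By genes, 80 members had a peak in all 4 libraries, 19 in 3, 23 in 2 and 41 in 1, and the 41 were 12 and 9 from sgScramble and 12 and 8 from sgArid1a replicates. In each library 104 to 124 members had a peak, with 124 and 123 in sgScramble and 104 and 113 in sgArid1a cells. Olfr654 was a member through a peak in each sgArid1a list that merged into a region nearest to Olfr655, so the 228 regions were nearest to 162 genes. At the threshold itself, the region farthest inside lay 47871 bp from Olfr291 and the closest outside 51267 bp from Olfr444, and 39 regions nearest to a receptor lay beyond 50 kb.

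The length covered by peaks was summed for each gene. It was lower in both sgArid1a than in both sgScramble libraries at 53 of 163 members (32.5%), against 51.6% of all genes with a peak, and higher at 8 (4.91%), against 3.56%. Of the 80 with a peak in every library, a choice made on the peaks themselves, 36 were lower (45.0%, against 53.9% of all such genes) and 6 higher (7.5%, against 3.34%), with a median change of -15.8% against -16.5%.

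Most members had 1 region (120 of 163), 27 had 2 and 15 had 3 or more. Olfr1373 and Olfr1358 had 6 each. Olfr1373 (chromosome 11, 52144593 to 52149130), in a cluster of 2 receptors,, was covered over 3993 and 3237 bp in sgScramble and 2605 and 3939 bp in sgArid1a replicates 1 and 2. Its groups overlapped. Olfr1358 (chromosome 10, 78498183 to 78521283) was covered over 3348 and 2376 bp in sgScramble and 1266 and 1592 bp in sgArid1a cells, lower in both, with 1 region lost and 3 in all lists. Olfr159 had 5 regions and overlapping groups (3079 and 2443 against 2224 and 2600 bp).

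Olfr1414 had 4 regions, all present in every list, and was covered over 2892 and 2861 bp in sgScramble and 2463 and 2676 bp in sgArid1a cells. The strongest of them, inside the annotated gene on chromosome 1 (92512675 to 92513586), had fold 6.46 and 6.89 in sgScramble and 5.48 and 5.93 in sgArid1a cells, at percentiles 94.5 and 97.2 against 82.8 and 91.1. The covered length and this region's percentile were lower in both sgArid1a libraries. Among members with 3 regions, Olfr545 (1968 and 1999 against 1427 and 1411 bp), Olfr279 (2002 and 1800 against 1240 and 1598 bp) and Olfr221 (1302 and 1483 against 563 and 489 bp) were lower in both sgArid1a libraries. Olfr225 was higher in both (1852 and 1654 against 2248 and 2181 bp), and Olfr282 (2259 and 2709 against 1691 and 2289 bp) and Olfr455 (2748 and 2680 against 2698 and 2486 bp) are given with their values. Olfr282 overlapped between the groups, as did Olfr455.

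Of 8 receptors known from other work, 3 had a region nearest to them. Of all 1110 receptor genes, 163 (14.7%) had a peak under the same rule. Olfr78, a receptor for short-chain fatty acids in the kidney and carotid body whose human counterpart has been described in melanocytes, had 1 region, a 512 bp peak inside its annotated gene (chromosome 7, 102757034 to 102757545) called in sgArid1a replicate 1 only, with fold 3.02. Olfr160, the M72 receptor, had 1 region 20805 bp away that was in all 4 lists (fold 3.51 and 4.21 in sgScramble, 3.57 and 3.39 in sgArid1a). That region lay 20865 bp from Panx3, and among single peaks only that of sgScramble replicate 2 was nearest to Olfr160. Olfr558, Olfr544, Olfr16, Olfr17 and Olfr1507 had no region within 50 kb nearest to them. Regions in all 4 lists lay 3044 bp from Olfr544 and 6244 bp from Olfr558, but were assigned to Olfr543 and Olfr557. None of these 8 receptors, counting Olfr2, had a peak within 1 kb of an end in any library.

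Genes outside the family that govern receptor choice were counted in the same way. In the 15 genes of receptor choice and silencing, 11 had a peak at an end in every library, among them Lhx2, Ebf1, Ebf4, Kdm1a, a histone demethylase gene, and Cbx5, which encodes heterochromatin protein 1 alpha. Among all protein-coding genes, 59.1% to 61.2% had an end peak in a given library. The 15 genes had 79 regions, and 7 of 56 in both sgScramble lists were lost (12.5%, against the 12.9% of all regions), with 2 each at Lhx2 and Emx2. At Lhx2, end peaks measured 1741 and 1356 bp in sgScramble and 970 and 1037 bp in sgArid1a cells. At Ldb1, Ebf3 and Emx2 there was no end peak in any library. In the 13 export and signalling genes, 3 of 40 regions were lost (7.5%), and Adcy3, Cnga4, Reep1 and Ric8b had end peaks in every library.

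Other clustered families that are silent in most tissues were counted under the same rule. Of 355 vomeronasal receptor genes, the pheromone receptors, 53 (14.9%) had a peak within reach, against 14.7% of olfactory receptors. They had 73 regions, of which 29 (39.7%) were in all lists, 3 of 42 were lost (7.14%, interval 1.5% to 19.5%) and 1 of 31 was gained. For trace amine and taste receptors it was 19 of 50 genes, with 2 of 18 regions lost. For defensins it was 16 of 71, with 0 of 16 lost (interval 0% to 20.6%). For keratin-associated proteins it was 15 of 56, with 2 of 11 lost. The intervals of the lost shares overlap that of the olfactory receptors, and 79.1% of all protein-coding genes had a peak under this rule. Vomeronasal regions lay within 1 kb of a gene end in 5 of 73 (6.85%), and olfactory receptor regions in 39 of 228 (17.1%). The median region width was 604 bp for olfactory receptors, 646 bp for vomeronasal receptors and 637 bp for trace amine and taste receptors. It was 602 bp for defensins and 550 bp for keratin-associated proteins. All regions within 50 kb of a protein-coding gene had a median width of 847 bp, so narrow regions were not particular to olfactory receptors.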

How the data were processed

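The members, lists and tests were chosen with earlier results of these data known. Libraries were made by Omni-ATAC, per the labels' protocols, and groups and replicate numbers come from the sample titles. The authors deposited 1 broad peak list per library, in which each peak has a −log10 p, a −log10 q, a score that follows the −log10 q, and a fold, read here as a ratio to background. Peak names in the sgScramble lists begin with sgNT. Builds named in the submitters' processing notes are mm10 and GRCm38, and tools are HOMER and STAR 2.5.3a, with no role given for any. The sources used here do not name the peak caller or any Tn5 read shift. Depth is unknown, and fold and −log10 values depend on it, so groups were compared on percentiles within a list, with the fold given beside them. Percentiles depend in turn on list length, as the same rank from the top stands lower in the shorter sgArid1a lists.

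All listed peaks lay on chromosomes 1 to 19, X or Y, and those overlapping by at least 1 bp were merged across libraries. Each region and each peak was assigned by its distance to the closest end of a protein-coding gene in a RefSeq table of GRCm38.p6. No symbol in that table used the newer Or naming. Strand came from RefSeq promoter windows, which also gave the sequences. Peak sequences are not shown, since no genome was used. The named genes were the 10 members with most regions, those at the 5 strongest regions in all lists, the 5 strongest lost and every gained region, members with end or promoter peaks, the 5 fullest clusters, the threshold neighbours and 9 receptors known from other work. Of those 9, 1 is listed as a pseudogene and was not analysed here. Library counts and covered lengths were compared by exact permutation tests. The merging and assignment steps were tested on simulated data. Same-numbered libraries did not deviate together (correlation 0.00502 over 52885 regions). Python 3.11.15, numpy 2.4.6, pandas 2.3.3, SciPy 1.17.1 and matplotlib 3.10.9 were used.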

Additional observations from a re-analysis of the deposited data

How the results depend on the processing

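Peak lists without read counts limit every comparison: depth cannot be told apart from the guide, and 2 libraries against 2 cannot give an exact p below 0.333. The difference in receptor peaks per library kept its sign (-20 to -34.5 peaks) in every setting but lists of equal length, where it was 6. The difference in covered length kept its sign throughout (-5997.5 to -28121 bp over all settings). The difference per 1000 peaks, 0.0365, is smaller than the spread between replicates and turned negative at −log10 q of at least 5 (-0.100) and in the upper 50% of each list by fold (-0.101), and ranged from -0.0506 to 0.124 with 1 library left out. With the replicate number as a block the peak difference was again -29 (exact sign permutation p = 0.5, the smallest 2 pairs can give). The difference in covered length was -21693.5 bp (exact sign permutation p = 0.5). That per 1000 peaks was 0.0365 (exact sign permutation p = 1). For replicates 1 and 2 the differences were -37 and -21 peaks, -30885 and -12502 bp, and -0.0206 and 0.0936 per 1000 peaks. Their mean equals the unblocked difference by arithmetic, so a block by replicate number could not move it and says nothing about robustness. The labels do not say what the shared numbers mark.

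Lost regions numbered 10 of 113 with lists of equal length (8.85%, against 6.97% of all regions) and 26 to 39 with 1 library left out: leaving out sgScramble replicate 1 gave 32, sgScramble replicate 2 gave 39, sgArid1a replicate 1 gave 26 and sgArid1a replicate 2 gave 33. A region left with 1 list in a group needs fewer peaks to be called. The receptor share was 18.2% to 23.1% in those 4 settings and that of all regions 17.4% to 23.1%. Gained regions numbered 0 of 50 at −log10 q of at least 5 (against 0.270% of all regions) and 1 of 58 in the upper 50% by fold (1.72%, against 4.25%). Where peaks had to cover 50% of the region it was 1 of 73 (1.37%, against 2.14%), and with lists of equal length 7 of 105 (6.67%, against 4.37%). Leaving out sgScramble replicate 1 gave 4 of 106 (3.77%, against 2.85%) and sgScramble replicate 2 gave 2 of 105 (1.90%, against 3.17%). Without sgArid1a replicate 1 or 2 it was 17 of 145 (11.7%, against 8.01%) and 19 of 137 (13.9%, against 7.52%). Members numbered 90 at −log10 q of at least 5, 95 in the upper 50% by fold and 102 with peaks of at least 500 bp, against 163, and 151 to 155 with 1 library left out. The comparison per 1000 peaks was added after the data were seen.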
